A study of Mus musculus with 24 samples.

Results

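Class II MHC and costimulatory transcripts were described in mouse macrophages of 2 genotypes under 3 treatments. The members were 10 genes fixed by name: the chains H2-Aa, H2-Ab1 and H2-Eb1, the peptide-exchange factors H2-DMa and H2-DMb1, the invariant chain Cd74, the transactivator Ciita, and the costimulatory receptors and ligands Cd40, Cd80 and Cd86. Each matched 1 row of the 54532 genes in the deposited table of FPKM (fragments counted on a gene, divided by its exon length in kilobases and by the library's mapped fragments). Of the 10, 9 reached an FPKM of 1 in at least 4 of 24 libraries, the limit used for the tests across all genes, and Ciita stayed below it. The macrophages were grown from bone marrow of C57BL/6 mice for 7 days in L929-conditioned medium with 10% serum and 1% penicillin and streptomycin. They came from wild-type mice (WT) or from Trem2(-/-) mice (KO), which lack the lipid-sensing receptor Trem2. Each genotype was left untreated, exposed for 24 hours to S1P (sphingosine-1-phosphate, a signalling lipid) at 500 nM, or exposed for 24 hours to ACM. ACM was serum-free medium conditioned for a further 24 hours by AML12 cells, a mouse hepatocyte line, that had been driven into apoptosis with palmitate at 800 µM. There were 4 libraries in each of the 6 groups. Neither the medium and culture time of untreated cells nor the Trem2 allele is stated in the sources at hand. No source says whether the libraries came from separate animals or cultures, so each p-value speaks of variation among these libraries, part or all of which may be technical.

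Class II molecules are pairs of an alpha and a beta chain that present peptides from endosomes to CD4+ T cells. The invariant chain holds the pair in shape and blocks its groove until endosomal proteases cut it away, and H2-DM then exchanges the last fragment for a peptide. Ciita is the coactivator on which transcription of these genes depends, and it acts through factors already bound at the W, X and Y boxes of their promoters. Interferon gamma is the classical inducer of Ciita in macrophages, which otherwise carry little class II. T cells need a further signal from Cd80 and Cd86, which both bind Cd28 and Ctla4. Cd40 receives Cd40 ligand from activated T cells and drives both NF-kB pathways in the macrophage.

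The promoter elements through which Ciita acts can be read in the RefSeq promoter windows (GRCm38.p6, 250 bases before to 50 after each start), which matched 5 of the 10 members in 6 windows. The stretches upstream of the starts of H2-Eb1 (chr17:34305722-34305841, plus strand) and H2-Aa (chr17:34287849-34287968, minus strand) are shown, with 30 bases of H2-DMb1 (chr17:34153089-34153118, plus strand), because these 3 windows carry the named boxes. GENCODE starts H2-DMb1 further upstream, so those 30 bases lie in its exon 1 there. Capitals mark the Y box core GATTGG on either strand, the X box match or its core AACTGATG, and the palindrome TGACGTCA.
H2-Eb1: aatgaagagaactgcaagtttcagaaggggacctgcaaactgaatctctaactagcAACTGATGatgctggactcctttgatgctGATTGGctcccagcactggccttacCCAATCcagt
H2-Aa: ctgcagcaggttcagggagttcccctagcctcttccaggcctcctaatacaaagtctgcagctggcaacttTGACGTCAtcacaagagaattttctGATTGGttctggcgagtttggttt
H2-DMb1: tttaCCTAGTAACTGATGatgctaggctga
The Y box core stood at -60 to -55 from the start of H2-Eb1, -49 to -44 of H2-Aa and -62 to -57 of H2-DMb1, and it also occurred at -199 to -194 in 1 of the 2 windows of H2-DMa. H2-Eb1 held a further copy on the other strand at -35 to -30. Of all 32851 windows, 5292 (16.1%) hold this core on either strand. The X box as searched (C, NN, AG, NN, AC, N and GATG in that order) matched H2-DMb1 alone among the members, at -98 to -85, and 0.237% of all windows. H2-Eb1 holds the last 8 letters of that match, AACTGATG, at -89 to -82, a core chosen after the promoters were read and present in 0.776% of windows. H2-Aa holds TGACGTCA at -74 to -67, upstream of its Y box core. This is the palindrome that cyclic AMP response factors bind, also chosen after reading and present in 1.79% of windows. An X box that departs from the letters searched would be missed, so H2-Aa is not shown to lack one. The interferon motif TTCNNNGAA (GAS), the ISRE (TTTC, NN, TTTC) and the NF-kB motif (GGG, NN, TTTCC) were in 0 of the 6 windows, against 8.3%, 3.44% and 1.63% of all windows. A match describes letters only, and the data hold no measurement of binding.

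Recovered depth was 16.6 to 25.2 M reads per library, with 10579 to 10892 genes at an FPKM of 1 or more. Trem2 checks the genotype labels: its FPKM was 74.5 to 109 in the 12 WT libraries and 35.7 to 40.7 in 11 of the 12 KO libraries. The library labelled KO untreated 81 read 79.6 for Trem2, a level among those of the untreated WT libraries (74.5 to 82.7), and so went against its label. It is shown apart, and the members' differences that rest on untreated KO cells are given with and without it. Over the 10 members, this library lay inside the range of WT ACM for 7, of WT S1P for 4, of WT untreated for 3 and of the other 3 untreated KO libraries for 1. Its Trem2 lay below the range of WT ACM (87.4 to 93.4). The same count over all genes was not made, so the WT group it resembles most is not settled here. All WT libraries carry lower library numbers than all KO libraries, and each treatment has its own block of numbers, so genotype and treatment cannot be told apart from any difference in when libraries were made.

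Macrophage markers were high in every library (10 of 10 detected), and their summed FPKM moved with the groups. It was 8458 to 8722 in untreated WT, 6980 to 7709 in WT ACM and 4824 to 6761 in WT S1P libraries. With S1P 6 of 10 markers were called lower than untreated and 2 higher, beside 27.2% and 25.2% of all genes tested. With ACM 3 were called lower and 4 higher, beside 9.85% and 12.2%, and the list's median log2 difference was 0.058. In the 11 KO libraries the sum was 5229 to 5801 (5229 to 5669 untreated), and 7246 in library 81. Without library 81, 4 markers were called lower and 1 higher in untreated KO against WT cells, beside 4.03% and 4.13%. With ACM 5 were lower and 2 higher, beside 15.5% and 12.5%, and with S1P 2 lower and 5 higher, beside 25.4% and 26.9%. A sum follows its most abundant genes, so it need not move as most of the list does. Among genes that mark other class II-bearing cells, the B cell markers Ebf1 and Blk were listed at 0 in all 24 libraries, and 8 of 10 B cell markers stayed under an FPKM of 1 everywhere. The B cell sum was 10.2 to 11.8 in untreated WT, 3.63 to 4.33 in WT ACM, 2.15 to 3.57 in WT S1P, 5.64 to 7.59 in the 11 KO libraries and 8.13 in library 81. Ighm, the immunoglobulin heavy chain and the 1 B cell marker tested, was called at a log2 difference of -1.56 with ACM and -2.14 with S1P in WT cells. Between genotypes it was called at -0.87 untreated (-0.98 without library 81), 0.82 with ACM and 1.27 with S1P. Of 10 dendritic cell markers, 7 stayed under 1 everywhere. Their sum was 64.2 to 69.3 in untreated WT and 63.8 to 69.7 in untreated KO libraries without 81, and did not overlap with ACM, at 76.7 to 83.8 in WT and 52.5 to 59.1 in KO. With S1P it was 50.4 to 71.3 in WT and 56.3 to 60.3 in KO. Under each treatment 2 of the 3 tested markers were called lower in KO cells (Itgax and Clec10a with ACM, Itgax and Batf3 with S1P), beside 15.5% and 25.4% of all genes tested. Granulocyte markers, 5 of 9 under 1 everywhere, summed to 5.54 to 10.9 in WT libraries, 15.7 to 23.7 in 11 KO libraries and 7.20 in library 81. All 4 tested were called higher in KO cells with ACM and with S1P, beside 12.5% and 26.9% of all genes tested. Untreated, 1 was called higher with all libraries and 3 without library 81, beside 1.26% and 4.13%. T or NK cell markers summed to at most 1.69, with Cd3e, Cd3g, Trac and Ncr1 at 0, and hepatocyte and fibroblast markers to at most 0.0680 and 0.0797. The part of the macrophage, B cell, dendritic cell and granulocyte lists in the genotype and treatment differences below was not tested. In bulk RNA, fewer cells of a type and less RNA per cell cannot be told apart.

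The invariant chain was the most abundant member per length in every group. In untreated WT cells the mean FPKM was 55.2 for Cd74, 20.99 for H2-DMb1, 10.5 for H2-Ab1, 9.67 for H2-DMa, 7.86 for H2-Eb1, 6.85 for Cd86, 6.48 for Cd80, 6.38 for H2-Aa, 3.32 for Cd40 and 0.228 for Ciita. Cd74, H2-DMb1, Cd40 and Ciita held the same places, 1, 2, 9 and 10, in all 6 groups. The places between shifted: Cd86 stood at 6 in untreated WT cells, at 5 with ACM and at 3 with S1P, while H2-Aa stood at 8 in untreated WT and at 5 in untreated KO without library 81. The macrophages thus carried class II transcripts at FPKM of 4.03 to 23.6 for the chains and H2-DM, with the transactivator at 0.105 to 0.467.

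**Figure D1:**
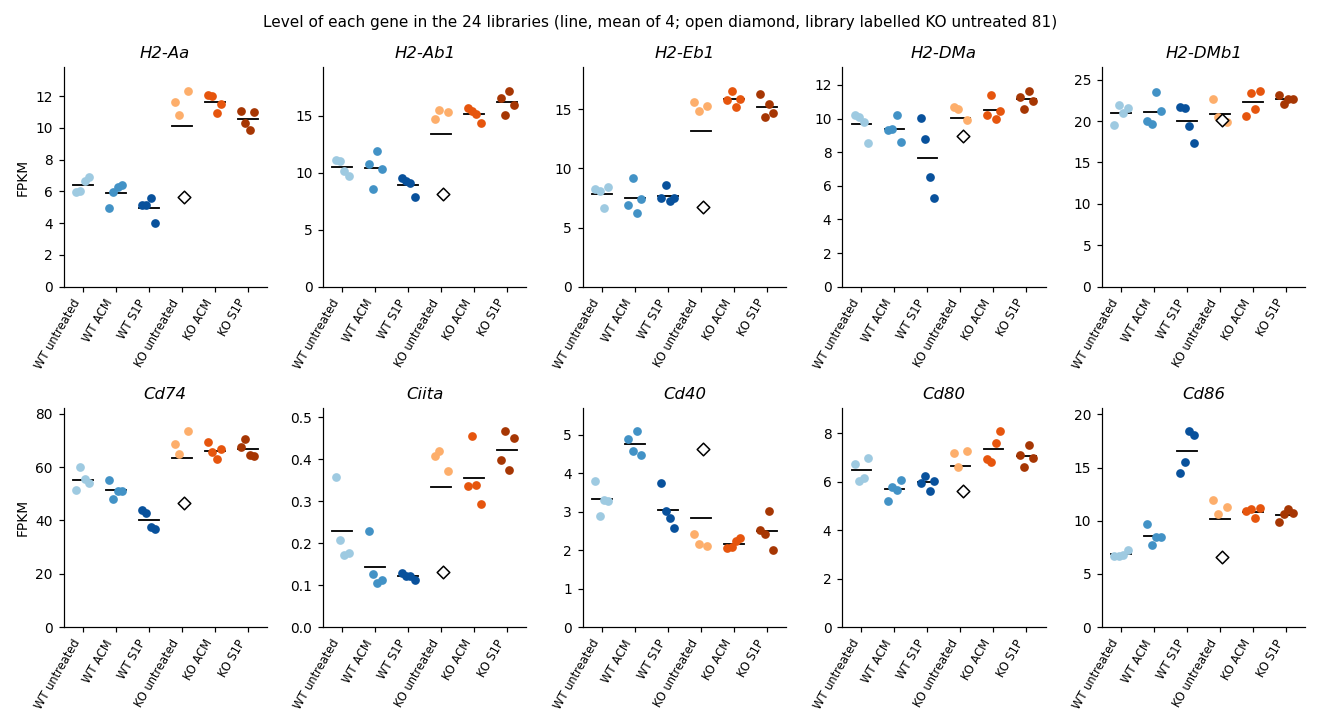
FPKM of the 10 genes (vertical axis, linear from 0) in each of the 24 libraries, by group; lines are means of 4 libraries and the open diamond is the library labelled KO untreated 81. H2-Aa, H2-Ab1, H2-Eb1 and Cd74 form a lower WT level and a higher KO level with library 81 on the WT side, Cd86 is highest in WT S1P, and Cd40 is highest in WT ACM.

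The 3 class II chains were higher in KO than in WT macrophages under every treatment once library 81 was set apart, by 1.45 to 2.12 times. H2-Aa (ENSMUSG00000036594, chromosome 17, 34282744 to 34287823, minus strand, GRCm38) encodes the alpha chain that pairs with H2-Ab1. In WT libraries its FPKM was 5.96, 6.03, 6.65 and 6.88 untreated, 4.96, 5.98, 6.30 and 6.38 with ACM and 5.13, 5.14, 5.58 and 4.03 with S1P. In KO libraries it was 11.6, 10.8 and 12.3 untreated, 12.1, 12.02, 10.9 and 11.5 with ACM and 11.1, 10.3, 9.89 and 11.02 with S1P, and 5.66 in library 81. The 11 KO libraries lay at 9.89 to 12.3 and the 12 WT libraries at 4.03 to 6.88, with no overlap, and library 81 lay among the WT values. On the log2(FPKM + 1) scale, which understates changes of low genes, the genotype difference was 0.88 ± 0.14 (SE, adjusted p = 8.18e-05) with ACM and 0.96 ± 0.14 (SE, adjusted p = 6.66e-06) with S1P, by limma with Benjamini-Hochberg adjustment over 11377 genes. In untreated cells it was 0.54 ± 0.14 (SE, adjusted p = 0.0469) with all libraries and 0.77 ± 0.080 (SE, adjusted p = 1.49e-06) without library 81.

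H2-Ab1 (ENSMUSG00000073421, chromosome 17, 34257689 to 34269419, plus strand) encodes the matching beta chain. Its FPKM in WT libraries was 11.1, 11.04, 10.1 and 9.68 untreated, 10.8, 8.52, 11.9 and 10.3 with ACM and 9.54, 9.30, 9.11 and 7.84 with S1P. The KO libraries had 14.7, 15.5 and 15.3 untreated, 15.6, 15.4, 15.1 and 14.3 with ACM and 16.6, 15.0, 17.2 and 15.9 with S1P, and 8.10 in library 81. All 11 KO libraries again lay above all 12 WT libraries, here by a narrower gap, 14.3 against 11.9 at the nearest. The log2 difference was 0.51 ± 0.13 (SE, adjusted p = 0.00534) with ACM and 0.79 ± 0.13 (SE, adjusted p = 2.57e-05) with S1P. Untreated, it was 0.29 ± 0.13 (SE, adjusted p = 0.271) with all libraries, which missed the threshold, and 0.50 ± 0.076 (SE, adjusted p = 0.000203) without library 81.

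H2-Eb1 (ENSMUSG00000060586, chromosome 17, 34305867 to 34316674, plus strand) encodes the beta chain of the E molecule, which C57BL/6 mice do not form because their alpha chain gene is defective. That alpha chain gene, H2-Ea-ps, was listed at 0 in all 24 libraries. H2-Eb1 FPKM in WT libraries was 8.23, 8.13, 6.65 and 8.45 untreated, 6.94, 9.21, 6.25 and 7.43 with ACM and 7.45, 8.57, 7.28 and 7.46 with S1P. The KO values were 15.6, 14.8 and 15.3 untreated, 15.8, 16.5, 15.2 and 15.9 with ACM and 16.3, 14.3, 15.4 and 14.6 with S1P, and 6.77 in library 81. The gap between genotypes, 14.3 against 9.21 at the nearest, was wide beside the spread inside each. The log2 difference was 1.00 ± 0.16 (SE, adjusted p = 7.42e-05) with ACM, 0.89 ± 0.16 (SE, adjusted p = 7.28e-05) with S1P and, untreated, 0.61 ± 0.16 (SE, adjusted p = 0.0473) with all libraries and 0.88 ± 0.086 (SE, adjusted p = 6.37e-07) without library 81. The antisense gene Gm20513 overlaps H2-Eb1, and since the strand setting of the counting is not given, reads of the pair cannot be told apart.

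Cd74 (ENSMUSG00000024610, chromosome 18, 60803848 to 60812652, plus strand) encodes the invariant chain. WT libraries had an FPKM of 51.3, 60.2, 55.6 and 53.9 untreated, 55.3, 48.0, 51.0 and 51.2 with ACM and 43.8, 42.9, 37.4 and 36.7 with S1P. In KO libraries it was 68.6, 64.8 and 73.4 untreated, 69.2, 65.7, 63.0 and 66.7 with ACM and 67.6, 70.5, 64.4 and 64.2 with S1P, and 46.4 in library 81. The nearest libraries of the genotypes were 63.0 in KO and 60.2 in WT, so the 11 KO libraries of Cd74 also lay above its 12 WT libraries. How many of all genes separate the genotypes in this way was not counted, so the split is not shown to be particular to class II genes. The log2 difference was 0.36 ± 0.095 (SE, adjusted p = 0.00684) with ACM and 0.72 ± 0.095 (SE, adjusted p = 1.49e-06) with S1P. Untreated, it was 0.17 ± 0.095 (SE, adjusted p = 0.372) with all libraries and 0.31 ± 0.065 (SE, adjusted p = 0.0035) without library 81.

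The 2 subunits of H2-DM, the endosomal peptide editor, showed no such split. H2-DMb1 (ENSMUSG00000079547, chromosome 17, 34153072 to 34160230, plus strand) ranged from 17.4 to 23.5 in WT and from 19.9 to 23.6 in 11 KO libraries, with library 81 at 20.1. Its genotype difference was -0.013 ± 0.064 (SE, adjusted p = 0.944) untreated with all libraries, 0.00070 ± 0.070 (SE, adjusted p = 0.996) without library 81, 0.076 ± 0.064 (SE, adjusted p = 0.411) with ACM and 0.17 ± 0.064 (SE, adjusted p = 0.0268) with S1P. Of these, the S1P difference alone passed the threshold, and that call was lost without WT S1P 27, WT S1P 28 or KO S1P 91 (adjusted p from 0.0598 to 0.137 by limma), and under TPM scaling (0.171), median scaling (0.0608), no limit on low values (0.0594) or a fit of these 2 groups alone (0.0512). Its neighbour H2-DMb2 is a near-identical copy, so reads could be split between them.

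H2-DMa (ENSMUSG00000037649, chromosome 17, 34119541 to 34139101, plus strand) was 10.2, 10.1, 9.80 and 8.57 in untreated WT, 9.32, 9.40, 10.2 and 8.59 in WT ACM and 10.1, 8.79, 6.55 and 5.29 in WT S1P libraries. The KO libraries had 10.7, 10.5 and 9.92 untreated, 10.2, 11.4, 10.0 and 10.4 with ACM and 11.3, 10.6, 11.6 and 11.1 with S1P, and 8.96 in library 81. WT S1P was the uneven group: libraries 25 and 26 lay among the untreated WT values and libraries 27 and 28 below every other library. The genotype difference was 0.52 ± 0.11 (SE, adjusted p = 0.000498) with S1P, 0.15 ± 0.11 (SE, adjusted p = 0.345) with ACM. Untreated, it was 0.048 ± 0.11 (SE, adjusted p = 0.872) with all libraries and 0.096 ± 0.12 (SE, adjusted p = 0.705) without library 81. Brd2 on the other strand and antisense genes overlap H2-DMa, with the same limit as for H2-Eb1.

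Ciita (ENSMUSG00000022504, chromosome 16, 10480059 to 10528418, plus strand), the class II transactivator, was low throughout, with 19 to 100 reads per library. Its FPKM in WT libraries was 0.358, 0.207, 0.172 and 0.176 untreated, 0.228, 0.128, 0.105 and 0.112 with ACM and 0.130, 0.122, 0.122 and 0.112 with S1P. The KO values were 0.409, 0.420 and 0.371 untreated, 0.337, 0.455, 0.339 and 0.294 with ACM and 0.397, 0.467, 0.374 and 0.451 with S1P, and 0.133 in library 81. Apart from WT untreated 1, every WT library lay below every one of the 11 KO libraries. Because Ciita fell below the limit of FPKM 1, an exact permutation test over libraries was used, two-sided, for which 4 against 4 libraries allow no p under 0.0286. The KO mean was 2.49 times the WT mean with ACM (exact p = 0.0286) and 3.48 times with S1P (exact p = 0.0286). Untreated, the ratio was 1.46 with all libraries (exact p = 0.314) and 1.75 without library 81, where the groups did not overlap but the exact p was 0.0571. These are unadjusted p-values. In a limma fit with no limit on low values, over 27013 genes, the adjusted p was 0.0108 with ACM, 0.00019 with S1P and 0.535 untreated. Dexi on the other strand overlaps Ciita.

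The costimulatory members did not move as a block between genotypes. Cd86 (ENSMUSG00000022901, chromosome 16, 36603869 to 36666081, minus strand) stood above the WT level in KO cells when untreated or with ACM and below it with S1P. WT libraries had an FPKM of 6.71, 6.68, 6.76 and 7.24 untreated, 9.69, 7.72, 8.51 and 8.52 with ACM and 14.5, 15.5, 18.4 and 18.02 with S1P. In KO libraries it was 11.9, 10.7 and 11.3 untreated, 10.9, 11.1, 10.2 and 11.2 with ACM and 9.85, 10.6, 11.1 and 10.7 with S1P, and 6.63 in library 81. The KO groups thus stayed between 9.85 and 11.9 while the WT groups climbed past them, with no overlap between any WT and any KO group once library 81 was apart. The log2 genotype difference was 0.47 ± 0.11 (SE, adjusted p = 0.0258) untreated, 0.65 ± 0.070 (SE, adjusted p = 2.65e-06) untreated without library 81, 0.31 ± 0.11 (SE, adjusted p = 0.0433) with ACM and -0.60 ± 0.11 (SE, adjusted p = 9.8e-05) with S1P. The ACM call was lost when any 1 of WT ACM 20, 21 and 22 or KO ACM 85 to 88 was left out, with adjusted p from 0.0527 to 0.123, with no limit on low values (0.105) and under median scaling (0.0517).

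Cd80 (ENSMUSG00000075122, chromosome 16, 38455561 to 38496335, plus strand), the other ligand of Cd28, moved over a narrow range. Its FPKM in WT libraries was 6.74, 6.03, 6.16 and 6.98 untreated, 5.22, 5.79, 5.65 and 6.07 with ACM and 5.96, 6.26, 5.63 and 6.04 with S1P. The KO libraries had 7.19, 6.61 and 7.25 untreated, 6.93, 6.83, 7.62 and 8.08 with ACM and 7.12, 6.63, 7.52 and 6.98 with S1P, and 5.63 in library 81. The genotypes overlapped when untreated and separated under both treatments. The log2 difference was 0.034 ± 0.064 (SE, adjusted p = 0.836) untreated with all libraries, 0.10 ± 0.058 (SE, adjusted p = 0.329) without library 81, 0.32 ± 0.064 (SE, adjusted p = 0.000626) with ACM and 0.21 ± 0.064 (SE, adjusted p = 0.00895) with S1P. The S1P call was lost under TPM scaling (0.106).

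Cd40 (ENSMUSG00000017652, chromosome 2, 165055627 to 165072948, plus strand) ran the other way, lower in KO cells. WT libraries had an FPKM of 3.80, 2.88, 3.31 and 3.28 untreated, 4.90, 4.57, 5.08 and 4.47 with ACM and 3.76, 3.03, 2.83 and 2.56 with S1P. The KO values were 2.42, 2.17 and 2.12 untreated, 2.06, 2.07, 2.23 and 2.32 with ACM and 2.52, 2.42, 3.02 and 2.00 with S1P, and 4.64 in library 81. Library 81 lay above every other KO library and every untreated WT library, inside the range of WT ACM. The log2 difference was -0.86 ± 0.14 (SE, adjusted p = 6.11e-05) with ACM, a KO mean of 0.457 times the WT mean. Untreated, it was -0.21 ± 0.14 (SE, adjusted p = 0.456) with all libraries and -0.41 ± 0.092 (SE, adjusted p = 0.00668) without library 81. With S1P the genotypes overlapped, and the difference was -0.21 ± 0.14 (SE, adjusted p = 0.2) with all libraries and reached an adjusted p of 0.0415 in the fit without library 81.

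Counted together, 3 of the 9 tested members were called higher and 0 lower in untreated KO against WT cells, beside 1.26% of all tested genes called higher and 1.21% lower (143 and 138 genes, 37 and 157 under TPM scaling and 164 and 104 under median scaling). Without library 81 the counts were 5 higher and 1 lower, beside 4.13% and 4.03%. With ACM, 6 were higher and 1 lower, beside 12.5% and 15.5% (1421 and 1765 genes, and 1658 and 964 under TPM scaling), and with S1P 7 were higher and 1 lower, beside 26.9% and 25.4%. The median log2 difference of the members was 0.17 untreated with all libraries, 0.31 without library 81, 0.32 with ACM and 0.52 with S1P, against -0.0039, -0.0078, 0.0059 and 0.00031 over all genes tested. The 3 calls made in untreated cells with all libraries (H2-Aa, H2-Eb1 and Cd86) were lost on leaving out any other library of the 2 groups, each with library 81 kept (H2-Aa adjusted p 0.0788 to 0.158, H2-Eb1 0.0759 to 0.16, Cd86 0.0513 to 0.0962). They were also lost under TPM scaling, with no limit on low values and with only these 2 groups fitted (adjusted p 0.062 to 0.261 by limma).

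**Figure D2:**
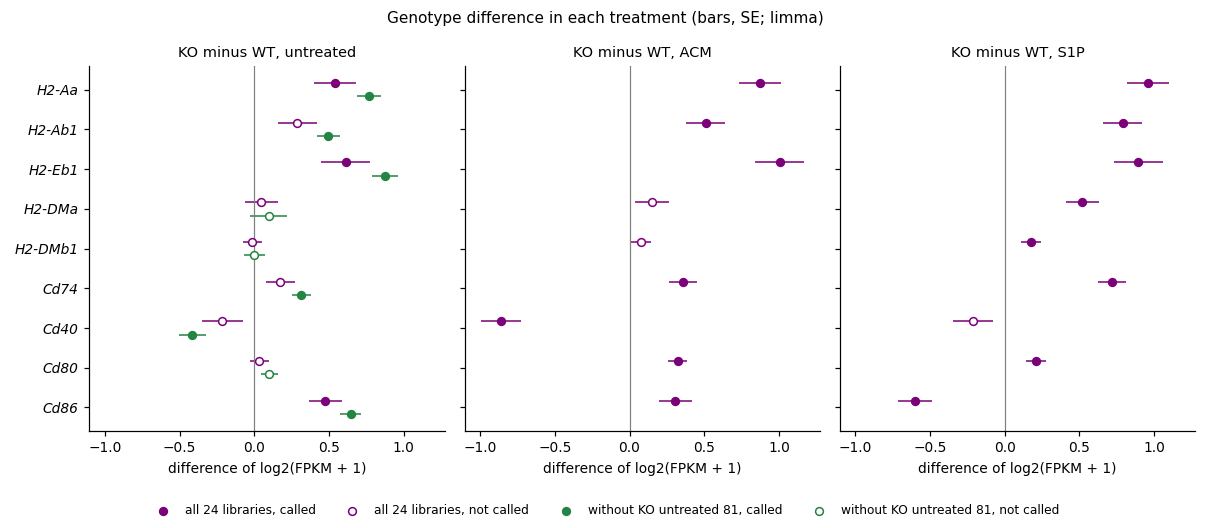
Log2 difference between KO and WT cells (horizontal axis, on log2(FPKM + 1)) for the 9 tested members, in 1 panel per treatment; points are limma estimates from all 24 libraries (purple) and, for untreated cells, without library 81 (green), bars are SE, and filled points are called at an adjusted p under 0.05. The class II chains and Cd74 lie right of 0 in each panel, Cd40 lies left, and Cd86 changes side between ACM (0.31) and S1P (-0.60).

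In WT cells with S1P, Cd86 rose and Cd74 and H2-DMa fell. Cd86 went from 6.85 ± 0.264 (SD, n = 4) to 16.6 ± 1.91 (SD, n = 4), 2.42 times the untreated mean, a log2 difference of 1.16 ± 0.11 (SE, adjusted p = 1.74e-08). Cd74 fell from 55.2 ± 3.75 (SD, n = 4) to 40.2 ± 3.67 (SD, n = 4), a log2 difference of -0.45 ± 0.095 (SE, adjusted p = 0.000384), and its groups did not overlap. H2-DMa fell by 0.33 on the log2 scale (0.11 SE, adjusted p = 0.017 by limma), a call that rested on the uneven pair noted above: without WT S1P 27 or without WT S1P 28 the adjusted p was 0.0652 and 0.0977. It was 0.121 when only these 2 groups were fitted. Libraries 25 and 26 also stood apart from 27 and 28 for Cd86 (14.5 and 15.5 against 18.4 and 18.02) and Cd74 (43.8 and 42.9 against 37.4 and 36.7). The same held for H2-Ab1 (9.30 against 9.11 at the nearest), H2-DMb1 and Cd40, but not for H2-Aa, H2-Eb1, Ciita or Cd80. How many of all genes part these libraries in this way was not counted, so the split is not shown to exceed chance. Of the 9 tested members 1 was called higher and 2 lower, beside 25.2% and 27.2% of all tested genes. The S1P libraries of H2-Aa and H2-Ab1 also lay below all untreated WT libraries. Their log2 differences were -0.31 ± 0.14 (SE, adjusted p = 0.0725) and -0.21 ± 0.13 (SE, adjusted p = 0.192), and in the fit without library 81, whose spread enters the shared error, the adjusted p was 0.00129 and 0.0168. For H2-Eb1, their neighbour on the chromosome, the difference was -0.026 ± 0.16 (SE, adjusted p = 0.911), and its libraries overlapped. Ciita was 0.531 times its untreated level, with no overlap (exact permutation p = 0.0286, limma adjusted p = 0.165 with no limit on low values).

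With ACM in WT cells, Cd40 was the member whose change passed the threshold. Cd40 rose from 3.32 ± 0.375 (SD, n = 4) to 4.75 ± 0.284 (SD, n = 4), a log2 difference of 0.42 ± 0.14 (SE, adjusted p = 0.0314), with every ACM library above every untreated WT library. That made 1 member called higher and 0 lower, beside 12.2% and 9.85% of all tested genes. The Cd40 call was lost without WT untreated 2, 3 or 4 or WT ACM 19 or 21 (adjusted p 0.059 to 0.0865 by limma), with no limit on low values (0.0837) and with values rescaled to a common sum, TPM (0.0767), and its adjusted p was 0.00104 without library 81. Cd86 was 8.61 ± 0.813 (SD, n = 4) with ACM, 1.26 times the untreated mean and again without overlap. Its log2 difference was 0.29 ± 0.11 (SE, adjusted p = 0.0673), and 0.00234 was the adjusted p without library 81. Cd80 was 0.878 times its untreated level, a difference of -0.16 ± 0.064 (SE, adjusted p = 0.0762) with all libraries and an adjusted p of 0.0333 without library 81. The class II chains, H2-DM and Cd74 had differences from -0.10 to 0.0043, with adjusted p from 0.49 to 0.974 and overlapping libraries. Under TPM scaling 0 members were called higher and 1 lower, Cd80 at -0.29 (adjusted p = 0.0175 by limma). With that scaling the median of all genes in this comparison moved by -0.11 and the all-gene calls from 1390 higher and 1121 lower to 471 and 2751.

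Set against each other in WT cells, the treatments differed in 4 members. Cd86 was lower with ACM than with S1P, a log2 difference of -0.87 ± 0.11 (SE, adjusted p = 3.26e-06), and Cd40 was higher, 0.52 ± 0.14 (SE, adjusted p = 0.00401). Cd74 was higher with ACM by 0.35 ± 0.095 (SE, adjusted p = 0.00518) and H2-DMa by 0.29 ± 0.11 (SE, adjusted p = 0.0429). That makes 3 members higher and 1 lower, beside 23% and 18.5% of all tested genes (2617 and 2109 genes, and 1596 and 2608 under TPM scaling). For Cd86, Cd40 and Cd74 the libraries did not overlap; for H2-DMa they did, and its call was lost without WT ACM 19, 20 or 21 or WT S1P 27 or 28 (adjusted p 0.0723 to 0.232), under TPM, median or quantile scaling, with no limit on low values and with only these 2 groups fitted (0.0552 to 0.183). In the fit without library 81, H2-Aa and H2-Ab1 were also called (adjusted p 0.0252 and 0.0358).

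In KO cells 0 of the 9 tested members were called in any of the 3 treatment comparisons, with library 81 or without it. At an unadjusted p under 0.05 limma had 0 members for ACM, 1 for S1P (H2-Ab1, log2 difference 0.29 with all libraries and 0.085 without library 81) and 0 for ACM against S1P, and limma-voom on recovered reads also called 0. Few genes of any kind were called: 0% higher and 0.00879% lower with ACM, 0% and 0.00879% with S1P, and 0.0352% and 0% for ACM against S1P. Without library 81 these were 0.0176% and 0.0264% with ACM and 0.0264% and 0.158% with S1P, and 24 genes higher and 4 lower for ACM against S1P. With all libraries, at an unadjusted p under 0.05 there were 1043, 1167 and 775 genes, and limma-voom on recovered reads called 4, 3 and 6. Without library 81 the members' log2 differences ran from -0.057 to 0.080 with ACM and from -0.12 to 0.10 with S1P. Cd86 was 11.3 ± 0.634 (SD, n = 3) untreated, 10.9 ± 0.429 (SD, n = 4) with ACM and 10.6 ± 0.513 (SD, n = 4) with S1P, and Cd40 was 2.24 ± 0.158 (SD, n = 3), 2.17 ± 0.130 (SD, n = 4) and 2.49 ± 0.419 (SD, n = 4). Within each gene the 3 KO groups overlapped.

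**Figure D3:**
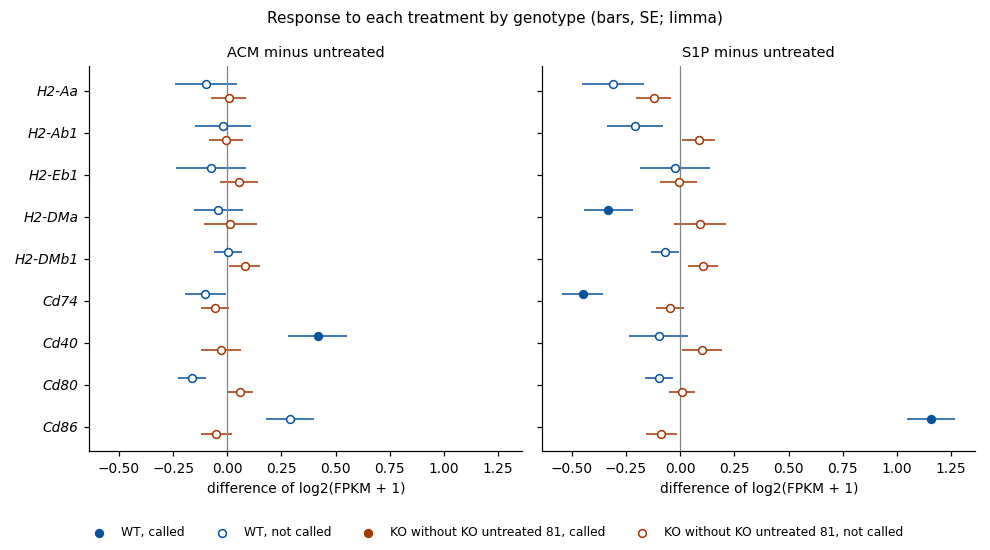
Log2 difference between treated and untreated cells (horizontal axis, on log2(FPKM + 1)) for ACM and S1P, by genotype; points are limma estimates, bars SE, filled points are called, and the KO values leave out library 81. Cd86 with S1P stands furthest from 0 in WT cells, and the 9 KO points lie between -0.12 and 0.10 in both panels.

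The difference between the genotypes' responses was tested as an interaction. For S1P it was -1.08 ± 0.16 (SE, adjusted p = 1.21e-05) for Cd86, 0.54 ± 0.13 (SE, adjusted p = 0.00237) for Cd74, 0.47 ± 0.16 (SE, adjusted p = 0.0209) for H2-DMa and 0.50 ± 0.18 (SE, adjusted p = 0.0333) for H2-Ab1. These were 3 members higher and 1 lower, beside 22.5% and 19.4% of all tested genes, with every response counted as KO minus WT. Without library 81 the same 4 members were called, beside 22.3% and 19.2%, at -1.25, 0.40, 0.42 and 0.29. The call of H2-Ab1 was lost on leaving out WT untreated 1 or 2, WT S1P 28 or KO S1P 91 or 93 (adjusted p 0.0533 to 0.0728), and that of H2-DMa on leaving out WT S1P 27 (0.0504). For ACM the interaction was -0.65 ± 0.19 (SE, adjusted p = 0.0237) for Cd40 and 0.29 ± 0.091 (SE, adjusted p = 0.0322) for Cd80, so 1 member higher and 1 lower, beside 7.41% and 9.64%. Without library 81, beside 6.16% and 8.75%, Cd40 was -0.45 ± 0.13 (SE, adjusted p = 0.0204) and Cd86 -0.34 ± 0.096 (SE, adjusted p = 0.0207), while Cd80 at 0.22 ± 0.079 (SE, adjusted p = 0.067) missed the threshold. The Cd80 call was also lost without WT untreated 1 or 4, WT ACM 19 or 21, or KO ACM 87 or 88 (adjusted p up to 0.0735). With no limit on low values the calls of H2-Ab1 (0.0839), H2-DMa (0.0545), Cd40 (0.0647) and Cd80 (0.0766) were lost, and with only the 4 groups compared in the fit those of H2-Ab1 (0.0619), H2-DMa (0.0513) and Cd80 (0.0538). With TPM scaling the all-gene calls of the ACM interaction moved from 843 higher and 1097 lower to 1499 and 436.

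Ratios between members within a library do not depend on scaling. Cd86 to Cd80 was 1.06 ± 0.0525 (SD, n = 4) in untreated WT, 1.52 ± 0.232 in WT ACM and 2.79 ± 0.405 in WT S1P libraries. In KO libraries it was 1.61 ± 0.0539 untreated (n = 3), 1.48 ± 0.139 with ACM and 1.50 ± 0.0923 with S1P, and 1.18 in library 81. The WT groups stood in 3 separate ranges, and the KO groups without library 81 lay inside the range of WT ACM, 1.33 to 1.85. H2-Aa to H2-Ab1 was 0.613 ± 0.0846, 0.578 ± 0.105 and 0.554 ± 0.0416 in the WT groups and 0.764 ± 0.0568, 0.770 ± 0.0334 and 0.655 ± 0.0532 in KO untreated without 81, with ACM and with S1P. The WT and KO ranges of that ratio met in untreated and in S1P cells and were apart with ACM, at 0.460 to 0.702 and 0.723 to 0.802. Cd74 to H2-Ab1 was 5.28 ± 0.436, 5.01 ± 0.550 and 4.50 ± 0.264 in WT and 4.54 ± 0.322, 4.38 ± 0.213 and 4.14 ± 0.392 in KO. H2-DMb1 to H2-DMa was 2.18 ± 0.248 in untreated WT and 2.02 ± 0.0884 in untreated KO libraries without 81, and 2.25 ± 0.172 and 2.12 ± 0.108 in WT and KO ACM libraries. With S1P it was 2.71 ± 0.506 in WT and 2.03 ± 0.0631 in KO libraries, whose ranges did not overlap (2.16 to 3.29 and 1.94 to 2.09).

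**Figure D4:**
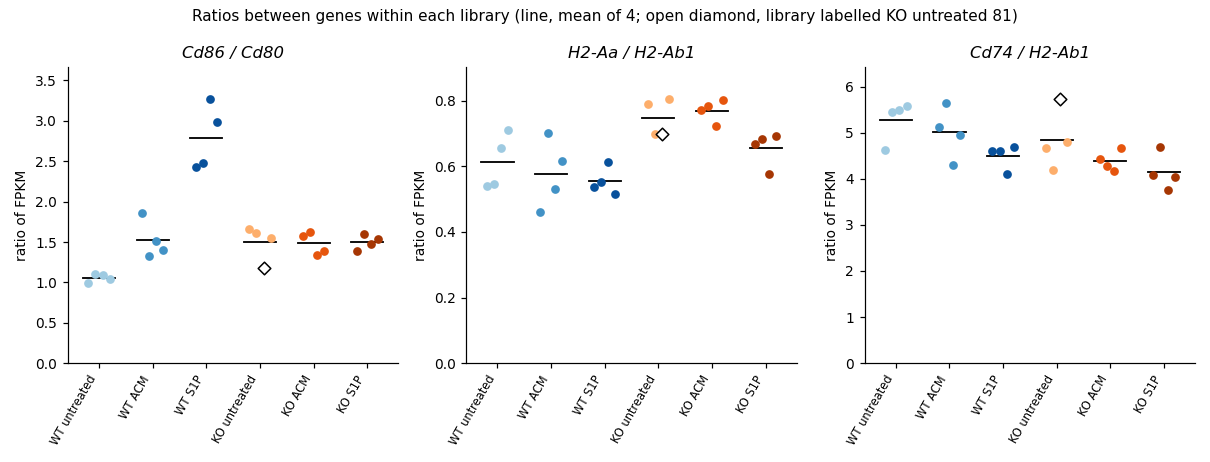
Ratio of FPKM between 2 members (vertical axis, linear from 0) in each library, by group; lines are means of 4 libraries and the open diamond is the library labelled KO untreated 81. Cd86 to Cd80 has WT means of 1.06 untreated, 1.52 with ACM and 2.79 with S1P and lies at 1.48 to 1.61 in the KO groups without library 81.

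The remaining class II genes of the mouse were few and low. Of 5 in the table, H2-Ob and H2-DMb2 passed the limit for testing. H2-Ob, a chain of the H2-O inhibitor of H2-DM, had a mean FPKM of 1.08 in untreated WT, 0.515 in WT S1P and 1.14 in KO S1P cells. It fell with S1P in WT cells by 0.47 on the log2 scale (adjusted p = 0.000827 by limma) and was higher in KO than WT cells by 0.35 with ACM and 0.50 with S1P (adjusted p = 0.0185 and 0.000408). Its S1P response differed between genotypes by 0.57 ± 0.15 (SE, adjusted p = 0.00416), and by 0.44 without library 81. H2-DMb2, the copy of H2-DMb1, was 0.372 in untreated WT, 0.305 with ACM and 0.274 with S1P, and in KO cells 0.769 with ACM and 0.987 with S1P. With these WT means, H2-DMb2 could not meet the limit for testing, an FPKM of 1 in at least 4 libraries, without KO libraries. The filter thus leaned on the genotype in which H2-DMb2 was then higher, and its calls are no independent support. It was called higher in KO cells in all 3 conditions, by 0.53 untreated, 0.42 with ACM and 0.64 with S1P (adjusted p = 0.0359, 0.0228 and 0.000317 by limma; untreated without library 81, 0.66 and 0.00204, and not called untreated under TPM scaling), although reads may be shared with H2-DMb1.

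The factors that occupy class II promoters were all expressed, and 9 of 9 were tested. In untreated cells 0 were called between genotypes, with or without library 81, and their median log2 difference was -0.024 with all libraries and -0.035 without it. Under TPM scaling 1 was called lower, with a median of -0.079, beside 157 genes lower and a median of -0.057 over all genes tested. With S1P in WT cells 1 was called higher and 4 lower, beside 25.2% and 27.2% of all genes tested: Kat2b, an acetyltransferase coactivator, fell by 0.35, Creb1, the X2 box factor, by 0.24 and Nfyb, a subunit of the Y box factor NF-Y, by 0.26, while Nfya, its DNA-contacting subunit, rose by 0.12, a call lost under TPM scaling (adjusted p from 3.69e-06 to 0.00175). With S1P the KO cells were higher in 4 and lower in 1, beside 26.9% and 25.4% (3 and 0 under TPM scaling), among them Kat2b by 0.36, Creb1 by 0.24, Nfyb by 0.21 and Rfx5, a subunit of the X box factor, by 0.16, a call also lost under TPM scaling. With ACM 2 were higher in KO cells, beside 12.5%, Creb1 by 0.19 and Nfyb by 0.14, and 0 lower. Under ACM in WT cells 0 were called higher and 1 lower, Nfyb at -0.14, beside 12.2% and 9.85% of all genes tested. Under TPM scaling the counts were 0 and 4, where the calls over all genes moved to 471 higher and 2751 lower.

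Endosomal proteases and turnover genes (9 of 9 tested) were called in both directions. With S1P in WT cells 3 rose and 3 fell, beside 25.2% and 27.2% of all genes tested (2 and 3 under TPM scaling, where the call of Ctss was lost): the cathepsin Ctsd was at 0.38, Ctss, the protease that makes the last cuts in the invariant chain, at 0.16, the ubiquitin ligase gene March8 at 0.17 and the asparaginyl protease Lgmn at -0.44. With ACM 4 rose and 1 fell, beside 12.2% and 9.85%, with Ctsd at 0.32, Ctsb at 0.17, Ctss at 0.14 and Sppl2a, which clears the invariant chain stub, at 0.17. Under TPM scaling 1 was called higher (Ctsd) and 2 lower, and under quantile normalization 1 higher and 1 lower, where the calls of Ctss, Ctsb and Ctsd were lost and Ctss changed sign. Lgmn and the cathepsin gene Ctsl were higher in KO cells under both treatments. With S1P, Lgmn had a mean FPKM of 224 in WT S1P and 379 in KO S1P cells, a log2 difference of 0.76 ± 0.058 (SE, adjusted p = 7.26e-10). Ctsl was 183 and 281, a difference of 0.62 ± 0.075 (SE, adjusted p = 4.38e-07). March1, the ligase that sends class II and Cd86 for degradation, was 1.01 in WT S1P and 1.90 in KO S1P cells, a difference of 0.53 ± 0.095 (SE, adjusted p = 7.19e-05). In all, KO cells were higher in 4 and lower in 1 with S1P (26.9% and 25.4% of all genes), 3 and 2 with ACM (12.5% and 15.5%), and 3 and 0 untreated (1.26% and 1.21%), where Lgmn (0.25), Ctsd (0.16) and Ctss (0.12) were called. Without library 81 the 3 called were Lgmn (0.30), Ctsl (0.20) and Ctss (0.13), beside 4.13% of all genes called higher. Under TPM scaling with all libraries 0 were called.

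The interferon gamma pathway was represented by 14 genes, of which 12 were tested, and Ifng itself was listed at 0 in all 24 libraries. With ACM in WT cells 5 rose and 2 fell, beside 12.2% and 9.85% (2 and 2 under TPM scaling, where Irf8 was not called): Irf8 rose by 0.18 and Irf1, a direct activator of Ciita, by 0.36, and the inhibitor Socs3 fell by 0.51 (adjusted p from 0.00128 to 0.00833 by limma). Under ACM, KO cells were higher in 1 and lower in 4, beside 12.5% and 15.5% (2 and 3 under TPM scaling), with Irf1 at 13.5 in WT and 9.23 in KO cells, a difference of -0.50 ± 0.093 (SE, adjusted p = 0.000301). With ACM, Ciita and the class II chains were higher in KO than in WT cells. Any part of Irf1 in their levels was not tested. With S1P in WT cells 4 rose and 3 fell, beside 25.2% and 27.2% of all genes tested (1 and 3 under TPM scaling, where the calls of Irf8, Jak2 and Spi1 were lost), and the receptor chains parted, Ifngr2 at 0.35 and Ifngr1 at -0.43. KO cells with S1P were higher in 5 and lower in 3, beside 26.9% and 25.4% (3 and 3 under TPM scaling), with Ifngr1 at 0.44, Ifngr2 at -0.27, Socs3 at 0.70 and Socs1 at 0.31. In untreated cells 0 of 12 were called, with or without library 81.

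Among 17 other costimulatory and checkpoint ligands, of which 12 were tested, 5 rose and 3 fell with S1P in WT cells, beside 25.2% and 27.2% of all genes tested. Cd274 (PD-L1), which restrains T cells through Pdcd1, went from a mean FPKM of 8.50 to 26.2, a log2 difference of 1.50 ± 0.10 (SE, adjusted p = 1.92e-10). Tnfsf4 (OX40 ligand) went from 0.370 to 3.29, 1.60 ± 0.14 (SE, adjusted p = 5.05e-09). Its untreated WT mean lay below the limit of FPKM 1, so Tnfsf4 was tested through groups where it was higher, WT S1P among them. Tnfsf9 (4-1BB ligand) and Icosl (ICOS ligand) fell by 0.91 and 0.53. Cd86 thus rose with S1P in WT cells beside Cd274 and Tnfsf4, while Cd80 had a log2 difference of -0.10 (adjusted p = 0.205 by limma). In KO S1P cells Cd274, Tnfsf4, Tnfsf9 and Icosl stood at 9.07, 0.546, 24.3 and 7.42. The S1P response differed between genotypes by -1.67 ± 0.15 (SE, adjusted p = 2.28e-08) for Cd274 and -1.54 ± 0.20 (SE, adjusted p = 2.62e-06) for Tnfsf4, and by -1.59 and -1.53 without library 81. With ACM in WT cells 4 rose and 1 fell, beside 12.2% and 9.85% (3 and 3 under TPM scaling, where Icam1 was not called): Cd274 rose by 0.67, the adhesion ligand Icam1 by 0.25, the galectin Lgals9 by 0.36 and Nectin2 by 0.32. KO cells were higher in 6 and lower in 4 with S1P, beside 26.9% and 25.4% (4 and 5 under TPM scaling). They were higher in 3 and lower in 4 with ACM, beside 12.5% and 15.5%, and 0 and 0 were called untreated. Without library 81, 2 were higher untreated, beside 4.13% of all genes tested, the checkpoint ligands Vsir (0.18) and Cd276 (0.59).

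Genes of CD40 signalling (14, of which 10 were tested) were called in 1 direction in WT cells with S1P. There 7 rose and 0 fell, beside 25.2% and 27.2% of all genes tested: the NF-kB subunit precursor Nfkb2 rose by 0.37, its upstream kinase Map3k14 by 0.42, and the receptor adaptors Traf1 and Traf3 by 0.48 and 0.29 (adjusted p from 9.99e-09 to 9.77e-07). With ACM 5 rose and 0 fell, beside 12.2% and 9.85%, but 2 rose and 3 fell under TPM scaling, where Traf1 and Relb kept their calls. The 5 included Traf1 by 0.39, Nfkb2 by 0.19, Relb by 0.33 and Traf3 by 0.14. The receptor Cd40 had a log2 difference of 0.42 with ACM and -0.099 with S1P. KO cells were lower in 4 with ACM and in 6 with S1P, beside 15.5% and 25.4%, and higher in 0, beside 12.5% and 26.9%, with Traf1 at -0.50 and -0.46, Nfkb2 at -0.21 and -0.25 and Relb at -0.42 and -0.46. Under TPM scaling these counts were 2 and 7. The S1P response differed between genotypes in 6 genes, all lower in KO, beside 19.4% of all genes tested called lower and 22.5% higher. Among them were Traf1 at -0.49, Relb at -0.48 and Nfkb2 at -0.34 (adjusted p from 8.07e-06 to 0.000659 by limma for these 3). The list's median log2 difference in WT cells was 0.27 with S1P and 0.093 with ACM, against 0.0038 and -0.0013 over all genes tested. In untreated cells 0 of 10 were called between genotypes, with or without library 81, and in the 3 treatment comparisons of KO cells 0 genes of any of these 6 lists were called.

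**Figure D5:**
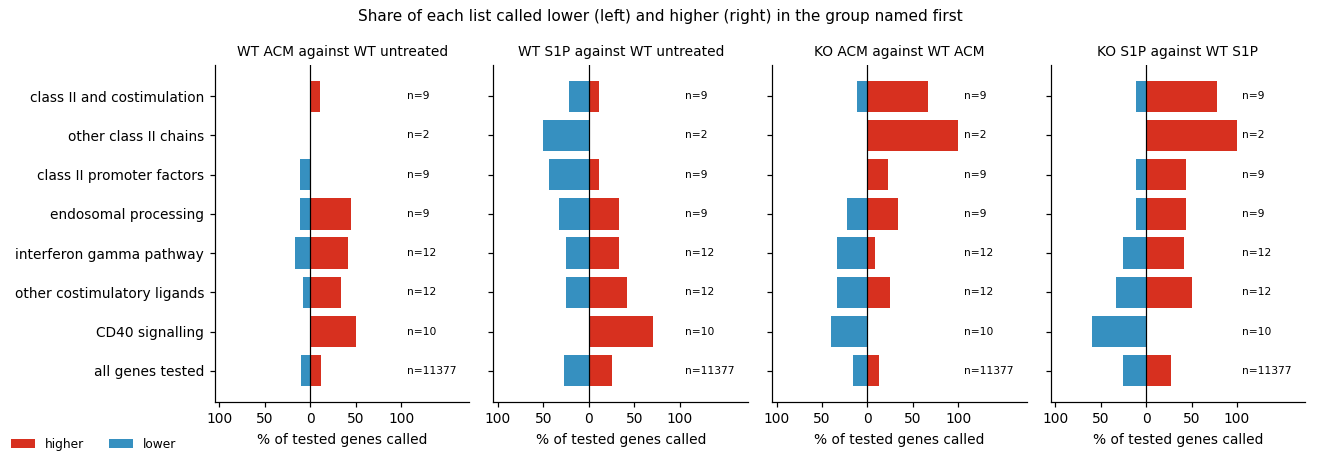
Share of the tested genes of each list called higher (right) or lower (left) by limma at an adjusted p under 0.05, in percent, for 4 comparisons, with the number tested beside each bar; the lowest bar shows all 11377 genes. CD40 signalling genes lie on the higher side alone in treated against untreated WT cells (5 and 7 of 10). They lie on the lower side alone in KO against WT cells (4 and 6 of 10). Under TPM scaling, not drawn, their WT ACM calls lay on both sides.

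Over 23 libraries without library 81, the genes whose log2(FPKM + 1) ran most like that of H2-Ab1 were Mertk (Pearson r = 0.951), Gramd1b (0.948), Adipor1 (0.942), Tcn2 (0.936) and Inpp4b (0.936). Mertk, a receptor for apoptotic cells, had a mean FPKM of 10.6, 9.60 and 8.003 in untreated, ACM and S1P WT cells and 15.3, 14.7 and 15.0 in KO cells. Among the members, H2-Ab1 ran closest to H2-Aa (0.928), Cd74 (0.895), Ciita (0.887) and H2-Eb1 (0.880), and Cd86 was not like it (-0.066). The genes most like Cd86 were Smpdl3a (0.970), Tnfaip2 (0.958), Lmbrd1 (0.939), Fth1 (0.937) and Gpnmb (0.936). Smpdl3a, a sphingomyelinase-like phosphodiesterase, stood at 53.4 in untreated WT, 103 in WT S1P and 77.5 in KO S1P cells. Those most like Cd40 were Cybb (0.951), Ifit1bl1 (0.950), Nes (0.945), St3gal5 (0.932) and Fcgr1 (0.929). Cybb, the catalytic subunit of the phagocyte oxidase, and Fcgr1, the high-affinity receptor for IgG, were highest in WT ACM cells, at 133 and 125. Those most like Cd80 were Angel2 (0.878), Lamtor3 (0.873), Rab32 (0.870), P2ry14 (0.861) and Ivns1abp (0.860). These r values describe libraries that share 6 group levels, so they carry no test.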

How the data were processed

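RNA was extracted with Trizol and enriched for mRNA with oligo(dT), per the labels' protocols. The authors deposited FPKM per Ensembl gene for 24 libraries, and the submitters' processing notes name the builds mm10 and GRCm38 and the tools DESeq, edgeR, featureCounts, HISAT2, STAR, STAR-Fusion and StringTie, without giving their roles; no source at hand gives the counting strand. GENCODE M21 named 54495 of 54532 genes. FPKM times exon length gave whole reads (within 0.05) in every library for 26186 of 27002 genes above 0 (97%); the H2 genes and Cd74 were not among them.

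All 24 libraries, in 6 groups, were fitted with limma 3.58.1 (R 4.3.3) on log2(FPKM + 1), with a mean-variance trend, over 11377 genes at an FPKM of 1 or more in at least 4 libraries. Genes were called at an adjusted p (Benjamini-Hochberg) under 0.05 in each of 11 comparisons. The code was tested on simulated data. An exact permutation test was used for Ciita. Alternatives changed the pseudocount (0.1), the limit on low values, the scaling, the error model and the libraries used, and included limma-voom on recovered reads. The members and lists were chosen with earlier results of these data known. Genes named beside the members were, per list and comparison, up to 4 of those called with the smallest adjusted p, and the 5 protein-coding genes most like H2-Ab1, Cd40, Cd80 and Cd86. Vsir, Cd276 and the H2-Ob interaction were named after their values were seen. Promoter windows are from RefSeq. Some genes that the naming rule would give are not reported here.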

Additional observations from a re-analysis of the deposited data

Results flagged for a closer look

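In 6 of 60 sets of 4 libraries (10 genes in 6 groups), 1 library stood far from the other 3, where chance gives about 1 in 20, and 4 of the 6 were the library labelled KO untreated 81. Its FPKM was 8.10 for H2-Ab1, 6.77 for H2-Eb1, 0.133 for Ciita and 4.64 for Cd40, and the other 3 untreated KO libraries had 14.7 to 15.5, 14.8 to 15.6, 0.371 to 0.420 and 2.12 to 2.42. Its Trem2 FPKM of 79.6 lay among the WT libraries. Of the remaining 2, WT S1P 26 had an H2-Eb1 FPKM of 8.57 beside 7.28 to 7.46, and WT untreated 4 had a Cd86 FPKM of 7.24 beside 6.68 to 6.76.

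The response to a treatment differed between the genotypes, by the limma interaction, for 6 values. With ACM these were Cd40, at -0.65 (KO minus WT, log2), and Cd80, at 0.29, beside 9.64% of all tested genes lower and 7.41% higher. With S1P they were H2-Ab1 at 0.50, H2-DMa at 0.47, Cd74 at 0.54 and Cd86 at -1.08, beside 22.5% higher and 19.4% lower. Leaving out library 81 moved these to -0.45, 0.22, 0.29, 0.42, 0.40 and -1.25 in the same order, and ended the call of Cd80. With no limit on low values the calls of H2-Ab1, H2-DMa, Cd40 and Cd80 were lost (adjusted p 0.0545 to 0.0839 by limma).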

How the results depend on the processing

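Direction was kept by all 32 called member values in every alternative run. Of 1969 recomputed member values, 1858 kept their side of the threshold, 93 lost a call, 18 gained one and 0 reversed. The number of members called was most open to change in untreated KO against WT cells, 3 with all libraries: 1 with a pseudocount of 0.1, robust empirical Bayes or no mean-variance trend, 0 with no limit on low values, TPM scaling or only the groups compared, and 0 to 6 with 1 library left out. For ACM in WT cells it was 1, against 0 with no limit on low values or with the limit at FPKM 5, 2 with only the groups compared, and 0 to 3 with 1 library left out. For the ACM interaction it was 2, against 0 with no limit on low values, 1 with the limit at FPKM 5 or only the groups compared, and 1 to 2 with 1 library left out. For the S1P interaction it was 4, against 2 with no limit on low values or only the groups compared. For S1P in WT cells it was 3, and 2 to 5 with 1 library left out. With the limit at FPKM 5, Cd40 was not tested, since WT ACM 21 alone passed that level, at 5.08. The cause of the other changes was not tested. No paired analysis was possible because the groups compared share no replicate numbers. Depth was lowest for Ciita, at 19 to 100 reads per library.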

Other observations

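Ciita was too low for the comparison of most similar genes in the report. Computed all the same, over 23 libraries without library 81, the genes whose log2(FPKM + 1) ran most like it were Gnaq (Pearson r = 0.918), Cd83 (0.918), Mmp10 (0.914), Cd244a (0.914) and Mertk (0.913). Cd83 is a surface protein known to protect class II and Cd86 from March1. Its mean FPKM was 6.26 ± 0.722 (SD, n = 4) in untreated WT, 4.66 ± 0.529 with ACM and 4.26 ± 0.428 with S1P, and 8.96 ± 0.550 (n = 3, without library 81), 9.46 ± 0.678 and 9.73 ± 0.455 in the KO groups. All 11 KO libraries, at 8.50 to 10.3, lay above the 12 WT libraries, at 3.62 to 7.11. Cd83 was singled out after its values were seen, from genes picked by their likeness to Ciita over these same libraries. Ciita was itself higher in KO cells, so the split of Cd83 between genotypes is no independent support. How many of all genes separate the genotypes in this way was not counted.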
